A study of Homo sapiens with 12 samples.

Results

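The replication-dependent histone genes are the clustered genes that encode linker histone H1 and the core histones H2A, H2B, H3 and H4. They were taken here as every gene with a probe set of a single gene symbol whose symbol begins H2AC, H2BC, H3C or H4C with a number, or is H1-1 to H1-6. There were 62 such genes among 18239 genes with a single-symbol probe set, and 57 of them reached the level needed for testing, a log2 value of 5 or more on at least 3 of the 12 arrays. By family, 6 of 6 H1, 15 of 15 H2A, 18 of 19 H2B, 9 of 10 H3 and 9 of 12 H4 genes were tested. The 5 genes below that level were H2BC1, H3C1, H4C4, H4C13 and H4C16. A further 22 of the 84 genes in RefSeq whose symbols meet the same rule, 13 of the 84 being pseudogenes, had no single-symbol probe set and were not analysed here.

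Core histones form the protein spool of the nucleosome, and linker histone H1 binds the DNA between nucleosomes. Most genes of these families lie in clusters, are transcribed mainly in S phase under the coactivator NPAT, and give short intronless mRNAs that end in a stem-loop bound by SLBP in place of a poly(A) tail. Some of them also give polyadenylated transcripts, which persist in cells that are not replicating. BET proteins, the targets of the bromodomain inhibitor CPI203, bind acetylated tails of these histones and promote transcription.

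Transcripts were measured in total RNA of cultures labelled as 3 established lines of human multiple myeloma, a plasma cell malignancy. The labels are ARP1, JJN3 and RPMI-8226. Each line gave 1 array per treatment, so n = 3 per group. Control cells had no drug, CPI203 was given at 0.01 µM, LenDex was 5 µM lenalidomide with 0.05 µM dexamethasone, and Combo was CPI203 and LenDex together at these doses, each for 6 h. Lenalidomide and dexamethasone were never given apart, so their effects cannot be told apart. In bulk RNA of a culture, more transcript per cell and more cells with the transcript cannot be told apart either.

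Before any comparison, the arrays were set against lineage markers. SDC1, the plasma cell surface protein CD138, was at log2 11.8 to 12.3 on the ARP1 arrays and at 4.96 to 5.79 on the JJN3 and RPMI-8226 arrays, near the array medians of 5.30 to 5.38. The other plasma cell genes listed were mixed on the JJN3 and RPMI-8226 arrays. IRF4 was at 12.4 to 13.3, XBP1 at 10.3 to 10.7 and MZB1 at 10.1 to 10.6. PRDM1 was at 4.84 to 5.97 there (10.96 to 11.55 in ARP1) and CD38 at 5.54 to 6.29 (9.02 to 9.30 in ARP1). TNFRSF17 ran from 5.52 to 9.83 and SLAMF7 from 6.83 to 9.99. The B cell gene MS4A1 (CD20) was at 4.59 to 5.34 on the ARP1 arrays and at 11.5 to 12.1 on the others. CD79A was at 5.625 to 5.986 in ARP1 and 10.891 to 11.575 on the others, and CD22 at 5.729 to 6.211 and 9.281 to 10.022. CD79B was at 4.94 to 5.538 in ARP1 and 6.55 to 7.685 on the others, and BLK at 4.65 to 5.374 and 7.206 to 9.446. Of the B cell genes measured only PAX5 did not separate the lines, at 6.87 to 7.41 in all 3. Across the genes tested, JJN3 and RPMI-8226 arrays correlated with r from 0.963 to 0.981, and ARP1 arrays with either at 0.867 to 0.887. The 3 lines may therefore not be 3 independent replicates, and counts are also given with the arrays of JJN3 and of RPMI-8226 averaged into 1 per treatment. The identity of the cultures labelled JJN3 and RPMI-8226 was not tested, and these names are used here as labels. Earlier results of these data set the JJN3 control array apart from the other JJN3 arrays, so counts that leave it out are given too. Medians of T cell, monocyte and fibroblast markers stayed between 4.78 and 5.27 on every array, and that of 4 epithelial markers was 6.82 to 7.38 on the JJN3 arrays. Single markers stood apart from these medians. The T cell gene CD3D was at 7.33 to 7.68 on the JJN3 arrays. Medians of 4 erythroid markers were 5.02 to 5.51, while HBG1 among them was at 12.3 to 13.3 on the ARP1 and JJN3 arrays. In RPMI-8226 HBG1 was at 6.77 and 6.91 without CPI203 and at 8.43 and 8.53 with it.

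The 5 histone genes that led the choice of this gene group, made with earlier results of these arrays known, were H3C4, H2BC21, H2AC6, H2BC5 and H2BC11. The 250 bases before each annotated start are shown because such windows hold the shared promoter elements of histone genes (RefSeq, GRCh38.p14, read along the gene's strand). Capitals mark the TATA box (TATAAA), the CCAAT box (CCAAT) and the octamer bound by POU2F1 and POU2F2 (ATTTGCAT), each on either strand.
H3C4 (chr6:26199294-26199543, minus strand): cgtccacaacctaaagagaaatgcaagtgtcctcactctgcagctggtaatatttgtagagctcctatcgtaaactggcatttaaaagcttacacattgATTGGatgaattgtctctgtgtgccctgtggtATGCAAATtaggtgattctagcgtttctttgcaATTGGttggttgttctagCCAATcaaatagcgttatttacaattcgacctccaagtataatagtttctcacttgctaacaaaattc
H2BC21 (chr1:149886683-149886932, minus strand): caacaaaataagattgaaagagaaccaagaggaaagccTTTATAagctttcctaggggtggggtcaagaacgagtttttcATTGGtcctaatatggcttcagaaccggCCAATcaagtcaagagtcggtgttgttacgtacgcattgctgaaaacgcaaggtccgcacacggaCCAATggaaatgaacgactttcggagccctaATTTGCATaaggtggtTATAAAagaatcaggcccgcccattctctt
H2AC6 (chr6:26123922-26124171, plus strand): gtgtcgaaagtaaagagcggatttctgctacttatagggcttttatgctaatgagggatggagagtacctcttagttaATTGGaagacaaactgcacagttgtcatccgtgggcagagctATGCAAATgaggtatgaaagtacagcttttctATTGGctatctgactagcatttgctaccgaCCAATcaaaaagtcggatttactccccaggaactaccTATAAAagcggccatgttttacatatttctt
H2BC5 (chr6:26157871-26158120, plus strand): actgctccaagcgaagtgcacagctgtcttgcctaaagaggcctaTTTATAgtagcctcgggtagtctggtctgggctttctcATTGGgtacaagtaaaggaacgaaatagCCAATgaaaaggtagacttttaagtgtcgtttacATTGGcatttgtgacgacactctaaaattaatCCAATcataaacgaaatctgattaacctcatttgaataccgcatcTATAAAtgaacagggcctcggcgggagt
H2BC11 (chr6:27132796-27133045, minus strand): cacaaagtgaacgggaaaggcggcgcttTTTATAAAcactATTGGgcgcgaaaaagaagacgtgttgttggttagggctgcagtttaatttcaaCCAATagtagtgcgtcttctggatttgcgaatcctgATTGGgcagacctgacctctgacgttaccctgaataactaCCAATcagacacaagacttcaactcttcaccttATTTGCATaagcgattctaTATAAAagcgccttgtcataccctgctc
In the H2BC11 window the capitals after the first bases are 2 overlapping TATA matches, 1 on each strand. The windows of H3C4, H2BC21, H2AC6 and H2BC11 also span the whole space to a neighbouring histone gene transcribed the opposite way, described with the gene pairs.

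Motif searches covered 300 bases, from 250 before to 50 after the start, in the 56 members with such a window and in 27305 windows of all genes, 1 per gene, on both strands. The octamer ATTTGCAT was in 26 of 56 member windows (46.4%) and in 1.8% of all windows. By family it was in 11 of 14 H2A, 14 of 18 H2B, 1 of 8 H3, 0 of 6 H1 and 0 of 10 H4 windows. The TATA box TATAAA was in 36 of 56 (64.3%, against 12% of all) and CCAAT in 49 of 56 (87.5%, against 35.7%). GGCGGGAA, the letters of an E2F site, was in 7 of 56, all of them among the 10 H4 windows, against 3.18% of all windows. The GC box GGGCGG was in 12 of 56 (21.4%, against 44.6%), and the E-box CACGTG in 0 of 56 (7.43% of all). Genes of a head-to-head pair share most of a window, so these windows are not independent, and a match describes letters only.

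A subset of the histone genes rose with CPI203, with the largest changes in H2A, H2B and H3 genes. The average effect of CPI203 compares the CPI203 and Combo arrays with the control and LenDex arrays, 6 against 6, here in a limma fit with cell line as a block and Benjamini-Hochberg adjustment over 15173 genes. At an adjusted p under 0.05, 17 of 57 tested members were higher and 0 lower, where 3.3% of all genes were higher and 3.99% lower. Among the members 53 of 57 stood above 0 (93.0%, against 49.3% of all genes), and the median change was 0.21 on the log2 scale (-0.003 over all genes). H2BC18, which was called, and H2AC16, at 0.11 and not called, met the level filter only through arrays with CPI203. Both stay in the counts given here and below. With no level filter 56 of 62 members stood above 0. The 17 rises ran from 0.37 to 1.92, or 1.29-fold to 3.77-fold, with a median of 1.02, and 9 were of 1 log2 unit or more. The other 40 ran from -0.18 to 0.997 with a median of 0.15. The lowest was H4C1, an H4 gene, at -0.18 ± 0.07 (SE, adjusted p = 0.137), below 0 in 3 of 3 lines.

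The calls depended on the arrays used. In limma the count of 17 became 21 without ARP1, and 0 when JJN3 or RPMI-8226 was left out, when the arrays of these lines were averaged, or with no line term. Over all genes the higher calls moved the same way, from 500 to 1228 without ARP1 and to 0 in each of the other fits just named. Leaving out only the control array of JJN3 gave 7 members and 42 of all genes. Members above 0 numbered 50 of 57 with JJN3 left out, 49 with RPMI-8226 left out, 51 with the arrays averaged and 52 with that control array left out.

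H3C4, an H3 gene on chromosome 6 (26196784 to 26199293), had the smallest p of the group. With control, CPI203, LenDex and Combo in that order, its log2 level was 6.94, 8.39, 7.09 and 8.34 in ARP1, 7.37, 9.82, 7.73 and 9.28 in JJN3, and 5.87, 7.90, 6.01 and 7.92 in RPMI-8226. Every array with CPI203 stood above every array without it, which held for no other tested member and for 0.389% of all genes. It rose by 1.77 ± 0.13 (SE, 3.42-fold, adjusted p = 0.00141).

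H2BC21, an H2B gene on chromosome 1 (149884459 to 149886682), was at 7.97, 9.30, 7.46 and 9.05 in ARP1, at 6.57, 8.92, 6.51 and 8.65 in JJN3, and at 5.32, 7.48, 5.31 and 6.27 in RPMI-8226. The CPI203 arrays were the higher ones within each line, and the RPMI-8226 array with Combo stayed below the ARP1 arrays without the drug. The rise was 1.75 ± 0.17 (SE, adjusted p = 0.00576).

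H2AC6, an H2A gene on chromosome 6 (26124172 to 26124690), was at 7.61, 8.81, 7.85 and 8.72 in ARP1, at 6.34, 8.77, 6.34 and 8.08 in JJN3, and at 5.04, 7.94, 5.02 and 7.37 in RPMI-8226. Without CPI203 the RPMI-8226 arrays were close to the array median, and with it they stood at 7.37 and 7.94, beside 7.61 and 7.85 in ARP1 without the drug. This was the largest rise among the members, at 1.92 ± 0.23 (SE, 3.77-fold, adjusted p = 0.00873).

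H2BC5, an H2B gene on chromosome 6 (26158121 to 26171349), was at 8.43, 9.38, 8.70 and 9.62 in ARP1, at 7.60, 9.06, 8.13 and 9.15 in JJN3, and at 7.19, 8.53, 7.31 and 8.97 in RPMI-8226. The CPI203 arrays were the higher ones within each line, and across lines the RPMI-8226 array with CPI203 stood below the ARP1 array with LenDex. It rose by 1.22 ± 0.11 (SE, adjusted p = 0.00371), and all 3 of its probe sets rose, by 1.17, 1.22 and 1.44.

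H2BC11, an H2B gene on chromosome 6 (27132316 to 27132795), was at 9.13, 10.06, 9.15 and 10.37 in ARP1, at 6.08, 7.93, 6.42 and 7.61 in JJN3, and at 5.15, 7.47, 6.15 and 6.64 in RPMI-8226. ARP1 lay above the other lines under every treatment. The rise was 1.33 ± 0.16 (SE, adjusted p = 0.00873).

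All 8 of the members with the largest changes had their smallest change in ARP1, and the 3 not yet described follow. H2AC25, an H2A gene on chromosome 1 (228457364 to 228457873), was at 5.23, 5.44, 5.25 and 5.30 in ARP1, at 6.56, 8.41, 7.20 and 8.43 in JJN3, and at 5.85, 8.79, 6.35 and 8.77 in RPMI-8226. H2AC8, an H2A gene on chromosome 6 (26216921 to 26217437), was at 6.75, 7.12, 6.90 and 7.36 in ARP1, at 7.48, 8.81, 7.30 and 8.78 in JJN3, and at 5.27, 7.73, 5.66 and 7.86 in RPMI-8226. Over the lines both rose, H2AC25 by 1.45 ± 0.34 (SE, adjusted p = 0.0373) and H2AC8 by 1.38 ± 0.26 (SE, adjusted p = 0.0220). H2BC8, an H2B gene on chromosome 6 (26216200 to 26216688), was at 5.47, 6.18, 5.72 and 5.77 in ARP1, at 6.28, 8.42, 6.61 and 8.19 in JJN3, and at 5.74, 6.99, 5.81 and 7.36 in RPMI-8226. It rose by 1.21 ± 0.22 (SE, adjusted p = 0.0195), most in JJN3.

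**Figure D1:**
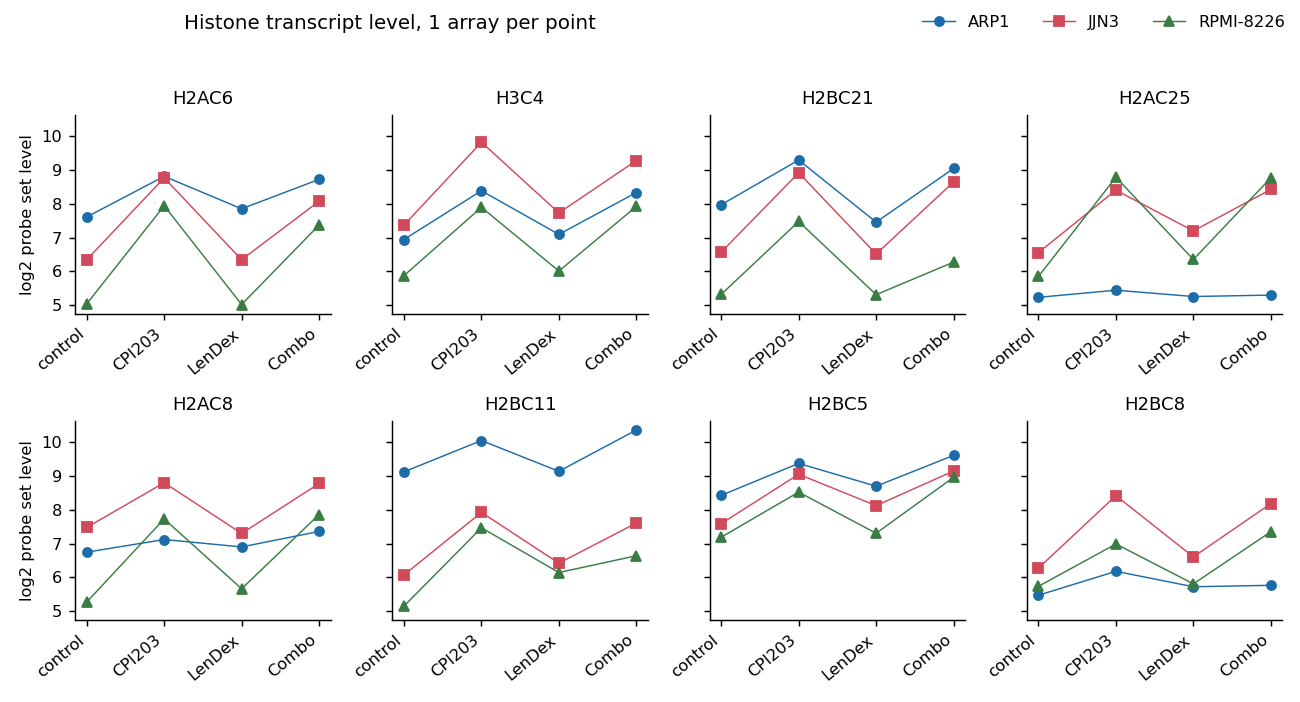
Log2 probe set level (y axis) of the 8 histone genes with the largest CPI203 average effect under control, CPI203, LenDex and Combo (x axis), 1 point per array and 1 line of points per cell line. Levels are high under CPI203 and Combo and low under control and LenDex in most panels, while ARP1 stays between 5.23 and 5.44 for H2AC25.

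Rises were counted by family, where 3.3% of all genes were higher, with no test of the difference between families. Of the H2A genes 6 of 15 rose (median of all 15, 0.18), which besides H2AC6, H2AC25 and H2AC8 were H2AC11 (1.02 ± 0.27), H2AC20 (0.80 ± 0.15) and H2AC7 (0.70 ± 0.12). Among H2B genes 7 of 18 rose (median 0.32), the others being H2BC4 (0.94 ± 0.11), H2BC18 (0.56 ± 0.14) and H2BC9 (0.37 ± 0.10). H2BC18 met the level filter only through arrays with CPI203, at 5.89 and 5.90 in JJN3 and 5.02 in ARP1 with Combo. Its arrays without CPI203 were at 4.49 to 4.84, so its call is not independent of the filter. H3 had 2 of 9 (median 0.33), H3C4 and H3C10 (0.59 ± 0.13). H4 had 1 of 9 (median 0.14), H4C8 at 0.65 ± 0.11, although H4C3 was bright on every array, at 13.27 to 13.98, with a change of 0.15 ± 0.07 (adjusted p = 0.20). H1 had 1 of 6 (median 0.15), H1-2 at 0.81 ± 0.19. These are changes with their SE, and the adjusted p of the rises given with a value here lay between 0.00873 for H2BC4 and 0.0489 for H2AC11. Just short of the threshold were H2BC20P, a transcribed pseudogene, at 0.39 ± 0.11 (adjusted p = 0.0532) and H2BC12 at 0.997 ± 0.28 (adjusted p = 0.0583).

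**Figure D2:**
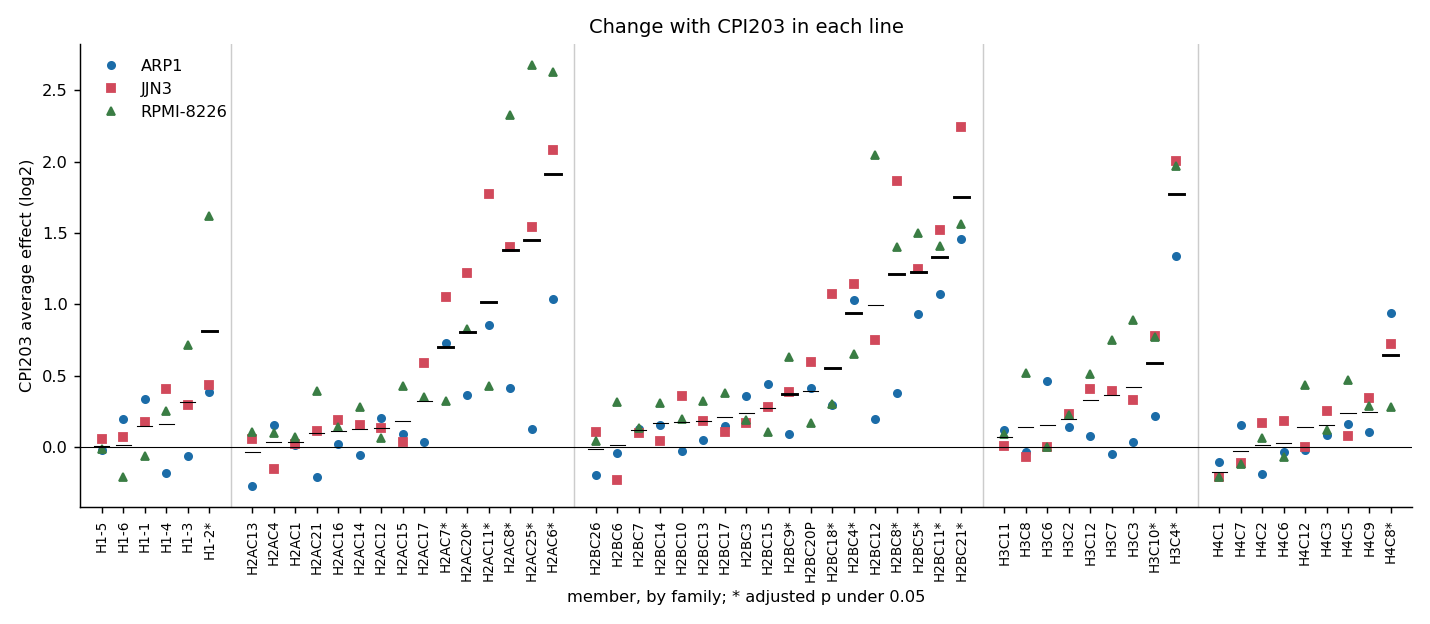
CPI203 average effect (y axis, log2) of each of the 57 tested members, ordered within family along the x axis, with 1 symbol per cell line, a bar for the mean of the lines and a star for an adjusted p under 0.05. Starred genes stand toward the right within each family, and ARP1 lies below the other lines for 13 of the 17.

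The change was smallest in ARP1 for most of the genes that rose. Over the 17 called members the median change was 0.73 for ARP1, 1.25 for JJN3 and 1.40 for RPMI-8226. ARP1 had the smallest change for 13 of them and RPMI-8226 for 4, and the largest change was in JJN3 for 10, in RPMI-8226 for 6 and in ARP1 for 1, which was H4C8, at 0.94 beside 0.72 and 0.28. All 17 stood above 0 in 3 of 3 lines, which their selection by p over the same lines favours. Each line's value averages the change alone and on LenDex. H2AC11 in RPMI-8226 changed by 1.22 alone and by -0.365 on LenDex. In 18 of 57 members both CPI203 arrays exceeded both other arrays within each of the 3 lines, against 2.96% of all genes. Taken line by line, ARP1 had this separation for 28 members and 13.6% of all genes. JJN3 had it for 33 members and 21.9% of all genes, and RPMI-8226 for 38 members and 25.3%. Fewer genes were thus separated by CPI203 within ARP1 over the whole series too. Whether the smaller ARP1 change is particular to the histone genes was not tested.

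Whether lines differed was tested by limma's moderated F test on the line by CPI203 terms, taking the drugs as additive. It was called for 3 of 57 members, with 0.323% called among all genes. In the order ARP1, JJN3, RPMI-8226, H2AC8 changed by 0.42, 1.40 and 2.33 (adjusted p = 0.0262). For H1-2, a linker histone gene, the changes were 0.39, 0.43 and 1.62 (adjusted p = 0.0447), and for H2AC25 they were 0.13, 1.54 and 2.68 (adjusted p = 0.0459). H2BC12 had 0.20, 0.75 and 2.05 (adjusted p = 0.11). In H1-2 the line with the largest change also had the lowest level without CPI203. H1-2 was then at 8.14 and 8.15 in RPMI-8226 against 10.30 to 10.85 in the other lines. On the ARP1 arrays H2AC25 stayed at 5.23 to 5.44, near the array medians of 5.30 to 5.38. H2BC12 was at 13.25 to 13.60 in ARP1 and at 8.79 to 11.36 in RPMI-8226. The part of level in these line differences was not tested. No member was called when the control array of JJN3 or any 1 line was left out, or when the arrays of JJN3 and of RPMI-8226 were averaged, and 7 members and 4.44% of all genes were called with a variance trend and robust fit.

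Levels also stood apart between lines whatever the treatment, as a description over 4 arrays of different treatment per line. The mean level of H2BC11 was 9.68 ± 0.63 (SD, n = 4) for ARP1, 7.01 ± 0.90 for JJN3 and 6.35 ± 0.97 for RPMI-8226. H2AC11, its head-to-head neighbour, ran in the same order at 8.80 ± 0.51, 6.57 ± 1.08 and 5.39 ± 0.54. H2AC25 ran the other way, at 5.30 ± 0.09, 7.65 ± 0.93 and 7.44 ± 1.56. Between RPMI-8226 and ARP1, 8 of 57 members were lower by more than 1 log2 unit in RPMI-8226 and 2 were higher by as much, where 8.7% and 8.56% of all genes were. In JJN3 4 members were lower and 4 higher than in ARP1 by as much, where 8.33% and 9.11% of all genes were.

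CPI203 against control gives the effect of this drug on its own. H3C4 was the 1 member that rose, by 1.98 ± 0.18 (SE, adjusted p = 0.0128 in limma), and no other gene passed in either direction (0.00659% higher, 0% lower). Without adjustment 26 of 57 members and 2456 of 15173 genes had p under 0.05, and the median change was 0.23 (-0.01 over all genes). H2BC5 stood at 1.25 ± 0.15 and H2BC21 at 1.95 ± 0.24 (adjusted p = 0.0554 for each), and H2AC6 at 2.18 ± 0.32 (adjusted p = 0.0721). The limma count of higher members was 13 without ARP1 (3.31% of all genes) and 8 with a variance trend and robust fit (0.699%). It was 0, as over all genes, when JJN3, RPMI-8226 or only the control array of JJN3 was left out, or when the arrays of the 2 lines were averaged.

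CPI203 added to LenDex was given by Combo against LenDex. In limma 0 of 57 members passed, as did 0% of all genes in either direction, while 22 members and 2264 of 15173 genes had an unadjusted p under 0.05. H3C4 stood at 1.57 ± 0.18 and H2BC5 at 1.20 ± 0.15 (adjusted p = 0.0569 for each), with a median of 0.21 over the members (0.004 over all genes). With a variance trend and robust fit 4 members rose (0.165% of all genes), and without ARP1 9 did (2.61%).

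Whether LenDex altered the response to CPI203 was tested by the interaction, in which 0 of 57 members passed in limma, with 0% called among all genes. Unadjusted, 1 member had p under 0.05, against 472 of all genes. This was H2BC11, at -0.73 ± 0.33 (SE, adjusted p = 1), at 0.30, -0.67 and -1.82 by line in the same order. Of the 17 members called in the average effect, 15 changed less on LenDex than alone, with medians of 0.96 and 1.08. Over all 57 members 35 did (61.4%, against 46.4% of all genes), with medians of 0.21 and 0.23. Interaction values ranged from -0.73 to 0.41 over the members, and the absence of a call does not show that the responses were alike.

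**Figure D3:**
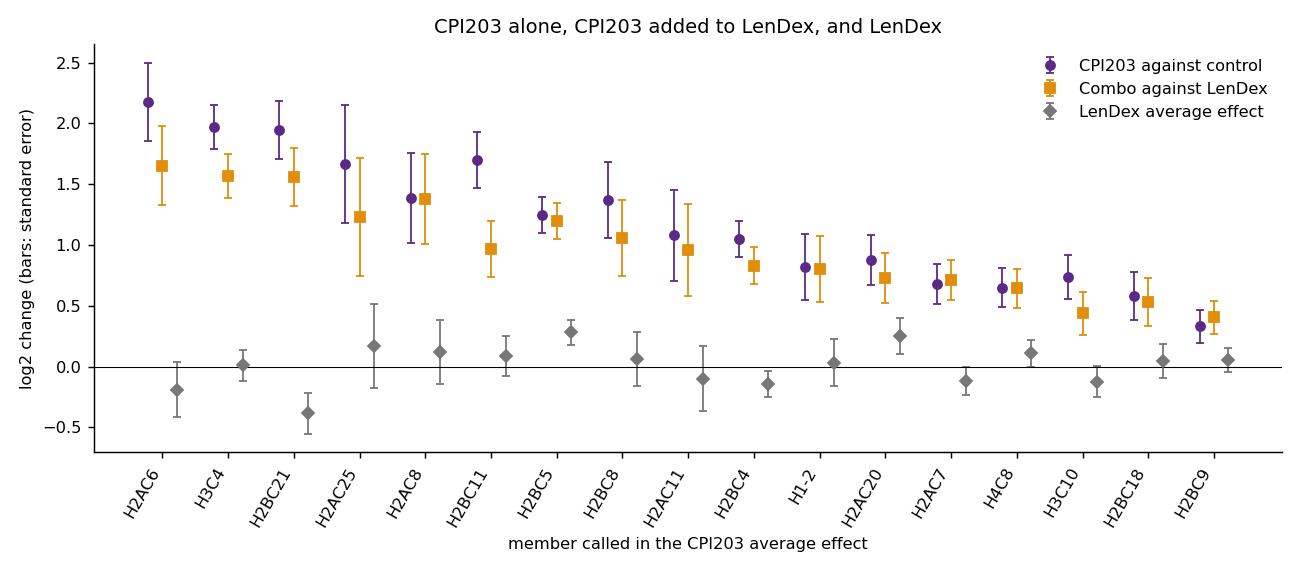
Log2 change with its standard error (y axis) for the 17 members called in the CPI203 average effect (x axis), for CPI203 against control, Combo against LenDex and the LenDex average effect. The CPI203 changes have medians of 1.08 alone and 0.96 on LenDex, and the LenDex effects lie between -0.38 and 0.28.

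LenDex without regard to CPI203 called no histone gene. In its average effect 0 of 57 members passed in limma, where 1.73% of all genes were higher and 2.52% lower, and 6 members had an unadjusted p under 0.05 (2863 of all genes). Member changes ranged from -0.38 for H2BC21 to 0.49 for H1-3, a linker histone gene with the smallest adjusted p, 0.0821. Against control alone LenDex had 0 members called and 0 with an unadjusted p under 0.05, with 0.244% of all genes higher, 0.217% lower and 2079 under 0.05 unadjusted.

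All 3 drugs against control gave 11 members higher and 0 lower in limma, where 3.55% of all genes were higher and 5.6% lower. This comparison shares its control arrays with that of CPI203 alone. The median over the members was 0.32 (0.01 over all genes). H2BC5 rose by 1.51 ± 0.15 and H3C4 by 1.79 ± 0.18 (adjusted p = 0.00343 for each), and H2AC6 by 1.73 (adjusted p = 0.0147). H2BC11, H2BC21, H2BC4, H2AC20, H4C8, H2BC8 and H2AC8 also rose. H1-3 rose by 0.80 ± 0.19 (adjusted p = 0.0344) and was the 1 gene of the 11 outside the calls of the average effect of CPI203. Its levels under control, CPI203, LenDex and Combo were 6.09, 5.93, 6.64 and 6.67 in ARP1, 5.90, 5.92, 5.81 and 6.37 in JJN3, and 5.75, 6.21, 6.14 and 7.09 in RPMI-8226, so Combo was its highest array in each line. The count was 17 with ARP1 left out (7.85% of all genes higher), 3 with the control array of JJN3 left out (0.468%), and 0 with JJN3 or RPMI-8226 left out or their arrays averaged, where at most 2 of all genes were higher.

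The genes were also read by their place in the genome. Of the 62 members 54 lie on chromosome 6, 7 on chromosome 1 and 1 on chromosome 12. In the CPI203 average effect 10 of 31 tested members rose in the stretch of chromosome 6 from 25726063 to 26285534, 3 of 19 in the stretch from 27132316 to 27893891, 3 of 5 on chromosome 1 from 149782689 to 149887965 and 1 of 2 from 228457364 to 228458558. These coordinates are RefSeq's on GRCh38.p14. Over all genes 3.3% were higher, and neither the difference between stretches nor the part of level in it was tested.

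Many H2A and H2B genes lie head to head and share 1 stretch of promoter sequence, and 11 such pairs had starts between 194 and 248 bases apart. In 4 of these pairs both genes rose, where 3.3% of all genes were higher. H2BC4 rose by 0.94 and H2AC6 by 1.92 across 246 bases, H2BC21 by 1.75 and H2AC20 by 0.80 across 236 bases, H2BC8 by 1.21 and H2AC8 by 1.38 across 233 bases, and H2BC11 by 1.33 and H2AC11 by 1.02 across 248 bases. In 2 pairs 1 gene rose and the other did not pass, in 4 neither passed, and in 1 a gene was not tested. H2AC25 rose by 1.45 ± 0.34 while H2BC26, 230 bases away, stood at -0.02 ± 0.10. The other was H2AC7, which rose by 0.70, with H2BC7, 223 bases away, at 0.12 ± 0.10 by its chosen probe set. Tested singly, the other probe sets of H2BC7 stood at 0.11 and 0.40 ± 0.09, the latter with an adjusted p of 0.0397, so its value depends on the probe set. The annotation starts H3C4 and H2AC7 at the same base and places H2AC7 inside H3C4, so the sequence shown for H3C4 is also that of H2AC7. H3C7, at 0.36 ± 0.13, and H2BC9, which rose by 0.37 ± 0.10, also lie head to head, 979 bases apart.

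Among H2A and H2B windows the octamer was in 11 of 13 called members (84.6%) and 13 of 18 tested members that were not called (72.2%). CCAAT was in all 13 and all 18, and TATAAA in 9 of 13 (69.2%) and 12 of 18 (66.7%). The E2F letters GGCGGGAA were in 0 of 13 and 0 of 18. Over all families they were in 0 of 17 called members' windows and 5 of 34 of the tested members not called. All matches lay in H4 windows, and only 1 called member, H4C8, is an H4 gene, so this contrast follows family. These shares were not tested, since paired genes share windows.

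Annotated gene length played no part in the choice of members. Most are annotated as 386 to 797 bases, and 7 have longer annotated spans, from 2224 bases for H2BC21 to 29682 for H2BC18, the others being H3C4, H3C6, H2BC12, H2BC4 and H2BC5. Of these 7, 5 rose and their median change was 0.997, and of the 50 tested members up to 1000 bases 12 rose with a median of 0.18. H3C4, H2BC21 and H2BC5 are among the 5 leading genes that led the choice of this group. H2BC18 met the level filter only through arrays with CPI203. The counts by length are therefore a description and not an independent test. Probe set levels moved with length, with a median of 7.40 for the longer genes and 5.27 for the shorter, near the array median, and the part of level in this split was not tested. Members with a mean level of 6 or more had 13 of 18 called, and those under 6 had 4 of 39. Calls went with level over all genes too. In a separate limma fit of genes with a mean of 6 or more 8.75% were higher, against 3.3% in the main fit. Of the 57 tested, 15 reached a value of 5 on only 3 to 6 arrays.

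**Figure D4:**
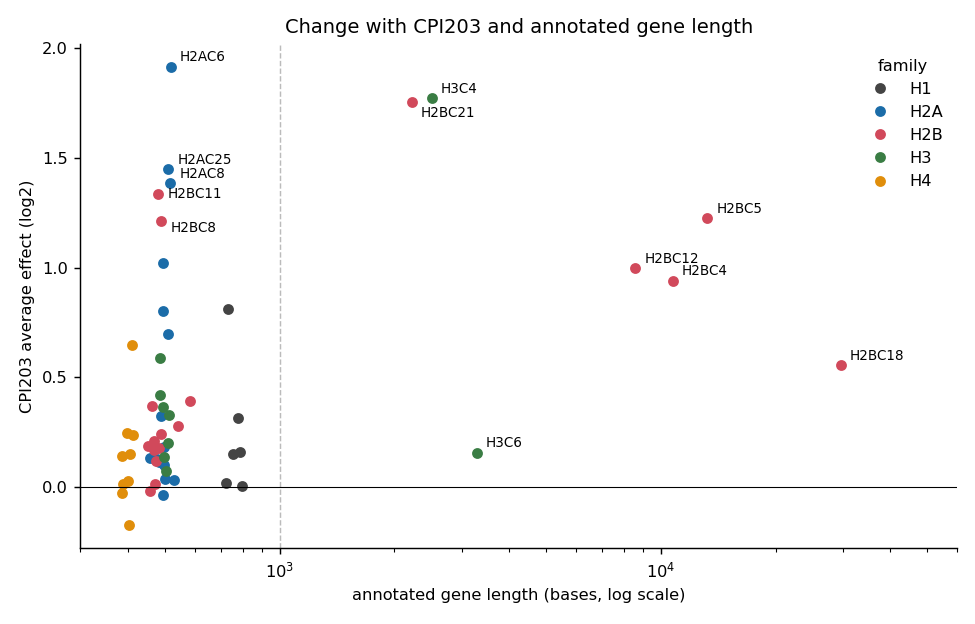
CPI203 average effect (y axis, log2) against annotated gene length (x axis, bases, log scale) for the 57 tested members, 1 point per gene coloured by family, with a dashed line at 1000 bases. The 7 longer genes lie between 0.15 and 1.77, and H2AC6, at 519 bases, has the largest change of all.

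A set of 6 histone genes with known polyadenylated transcripts was H1-2, H2AC6, H2BC4, H2BC5, H2BC12 and H2BC21. In the CPI203 average effect 5 of 6 were higher, against 3.3% of all genes, with a median of 1.11, against -0.003 over all genes. That set was written with earlier results of these arrays known, and H2AC6, H2BC5 and H2BC21 are among the 5 leading genes. Its count is a description and does not test a part of polyadenylation in the rise. The primer used to make cRNA is not given in the sources used here, so how far transcripts without a poly(A) tail were measured is not known.

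Probe sets of the same gene did not always move alike. Of 26 members with several tested probe sets, 23 had all of them above 0 and 19 had changes within 0.3 of each other. The widest spread was H2BC21, at 1.75 for its chosen probe set and 0.17 for a dim one with a mean level of 4.92. H2BC11 had 1.33, 0.47 and 0.31, the lower values from probe sets at 5.54 and 5.11. H2AC8 had 1.38 and 0.82, both passing when probe sets were tested singly. Of the tested members, 28 were read by a probe set whose suffix (_s_at or _x_at) marks probes shared with other transcripts, so near-identical family members can add to them. With such probe sets left out, 8 of 40 tested members rose in place of 17 of 57, and 2.93% of all genes in place of 3.3%.

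Genes that make and handle histone mRNA and protein were listed beside the members. Of 12 tested replication-independent histone genes 2 rose in the CPI203 average effect (median 0.05, with 3.3% of all genes higher), the DNA damage variant H2AX by 0.52 ± 0.09 (adjusted p = 0.0181) and H3-3B, which encodes H3.3, by 0.33 ± 0.07 (adjusted p = 0.024). H2AZ1 stood at 0.09 (adjusted p = 0.484), H2AZ2 at 0.20 (adjusted p = 0.0917), MACROH2A1 at -0.18 (adjusted p = 0.13) and the centromere variant CENPA at 0.004 (adjusted p = 0.988).

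In the list of histone mRNA transcription and processing 1 of 31 genes passed, lower, where 3.99% of all genes were lower. It was LSM10 of the U7 particle that cuts histone mRNA, which fell by 0.32 ± 0.09 (adjusted p = 0.0499). The stem-loop binding protein gene SLBP stood at 0.18 ± 0.08 (adjusted p = 0.182) and NPAT at 0.19 ± 0.08 (adjusted p = 0.204). The cleavage factor gene CPSF2 was at -0.41, the octamer coactivator gene POU2AF1 at -0.40 and HINFP, an activator of H4 genes, at 0.45, with adjusted p of 0.0525, 0.0626 and 0.0631. The list's median was 0.02.

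Of 25 histone chaperone and chromatin assembly genes 1 rose and 1 fell, with a median of -0.07, where 3.3% of all genes were higher and 3.99% lower. ASF1B, an H3-H4 chaperone, rose by 0.43 ± 0.09 (adjusted p = 0.0294), and MCM2, a helicase subunit that also binds H3-H4, fell by 0.46 ± 0.10 (adjusted p = 0.0303). ASF1A stood at 0.40 (adjusted p = 0.0603) and NASP at 0.22 (adjusted p = 0.103).

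Genes of S phase and DNA replication, which are transcribed when the members are, did not move as one. Of 41 tested 2 rose and 5 fell, beside the same 3.3% and 3.99% of all genes, and the median was -0.13 where that of the members was 0.21. The ribonucleotide reductase gene RRM2 rose by 0.45 ± 0.07 (adjusted p = 0.0143) and CDC6, a licensing factor, by 0.26. The clamp loader gene RFC3 fell by 0.49 ± 0.10 (adjusted p = 0.0223), GINS1 and POLE2 of the replication fork by 0.42 and 0.57, the transcription factor gene E2F1 by 0.35 and the replication kinase gene CDC7 by 0.36. No measure of the cell cycle was used here, and the part of cell cycle phase in the histone changes was not tested.

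No lineage marker was called for CPI203. In the CPI203 average effect 0 of 8 plasma cell genes and 0 of 6 B cell genes passed in limma, with medians of -0.16 and -0.06. The array medians of the plasma cell list ran from 8.48 to 11.75 in control, 6.73 to 11.68 in CPI203, 8.27 to 11.69 in LenDex and 6.93 to 11.56 in Combo. Those of the B cell list ran from 5.57 to 8.94, 5.403 to 8.59, 5.46 to 9.44 and 5.62 to 8.86. The lower bounds of the plasma cell list came down with CPI203 in the same 2 lines in which most histone changes were larger, and their part in the histone result was not tested.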

How the data were processed

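The authors deposited log2 probe set levels of 12 Affymetrix arrays. The submitters' processing notes name RMA and Affymetrix Expression Console 1.1. RMA as published gives arrays a common distribution, which hides a shift shared by all transcripts. Whether all arrays were normalised together is not given in the sources used here. Groups came from the treatment label. Titles give no time for CPI203 alone, and 6 h comes from the treatment protocol. Symbols came from the platform annotation, updated through RefSeq (45172 of 45253 single-symbol probe sets matched).

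Each gene was read by its single-symbol probe set of highest mean. The 15173 genes at 5 or more on at least 3 arrays were fitted in limma 3.58.1 (R 4.3.3) with group and line, two-sided (6 residual degrees of freedom). Arrays of a line pair across groups, and their deviations from group means correlated at 0.82 to 0.938. The fit was tested on simulated data. The p-values rest on how far treatment changes varied between lines, after the line block took out each line's own level. The CPI203 average effect counts both changes of a line, alone and on LenDex, so its 6 residual degrees of freedom come from only 3 lines. Where lines differed in response its SE can understate the spread between lines, as for H2AC25 (0.13 to 2.68 by line, SE 0.34). The number of arrays limits precision. Members, gene lists and tests were chosen with earlier results of these data known. Named genes were members called in any comparison, the 5 leading genes, the largest and smallest CPI203 effects, up to 4 genes of smallest p per other list, and SLBP, NPAT, H2AZ1, H3-3B and CENPA (1 further gene of this rule is not reported here). Other members were named as neighbours, for length, for a bright probe set or near the threshold after their values were seen. The 12 alternatives, and 1 chosen after seeing the data (each probe set tested singly), changed level filter, probe set choice, scaling, variance model, line block and arrays.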

Additional observations from a re-analysis of the deposited data

Results flagged for a closer look

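The response to CPI203 differed between the 3 lines by a moderated F test in limma for 3 histone genes. These were H2AC8 (adjusted p = 0.0262), H1-2 (adjusted p = 0.0447) and H2AC25 (adjusted p = 0.0459), each changing least in ARP1 and most in RPMI-8226. Probe sets that carry several gene symbols, at least 1 of them a histone gene of these families, were left out of the main measurement because no gene can be named from them. Of 8 such probe sets 7 were tested, and 3 rose with CPI203, by 1.38 ± 0.24, 1.57 ± 0.31 and 1.80 ± 0.14 (SE), with adjusted p of 0.0234, 0.0283 and 0.000805 in limma. The median of the 7 was 0.23.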

How the results depend on the processing

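Counts of called members changed with the arrays used, as did those of all genes. Of the 57 members 53 stood above 0 in the CPI203 average effect, and 49 to 53 did in the fits of the same 57. Counts of members higher under CPI203 against control (1), in the CPI203 average effect (17), in Combo against LenDex (0) and in Combo against control (11) became 0, 0, 0 and 0 with no replicate block, the fit without the line term. Averaging the arrays of JJN3 and of RPMI-8226 also gave 0, 0, 0 and 0, and leaving out the control array of JJN3 gave 0, 7, 0 and 3. Leaving out 1 line at a time gave 0 to 13, 0 to 21, 0 to 9 and 0 to 17. Without _x_at and _s_at probe sets they were 3, 8, 2 and 6, with a variance trend and robust fit 8, 18, 4 and 13, after cyclic loess 3, 16, 2 and 11, and with the median of probe sets 3, 18, 2 and 13. A mean level filter of 6 gave 1, 14, 2 and 9, and each probe set tested singly 3, 17, 1 and 12. In the CPI203 average effect 3.3% of all genes were higher in the main fit and 2.93% without _x_at and _s_at probe sets. That share was 5.06% with a variance trend and robust fit, 3.43% after cyclic loess and 3% with the median of probe sets. With the mean level filter of 6 it was 8.75%. For Combo against control the main share was 3.55%, and these fits gave 2.9%, 4.65%, 4.27%, 3.1% and 8.3% in that order. The 3 line differences became 7 with a variance trend and robust fit, 1 without _x_at and _s_at probe sets, and 0 when the control array of JJN3 or 1 line was left out or those arrays were averaged. With the mean level filter of 6, which left 18 members, the median member change was 1.115 for CPI203 against control, 0.900 for Combo against LenDex, 1.008 for the CPI203 average effect, 0.152 for LenDex against control, 1.034 for Combo against control and -0.134 for the interaction. The median for the LenDex average effect (0.045) was 0.069 with the median of probe sets, 0.072 without _x_at and _s_at probe sets and 0.063 with the arrays averaged. Fewer samples enter the fits that leave out or average arrays, and for the other alternatives the cause was not tested. Signals near the array median limit what can be measured for the 39 members with a mean level under 6.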
